A study of Mus musculus with 12 samples.

Results

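The genes described here are 10 mouse genes of antigen presentation by the major histocompatibility complex (MHC), chosen by their symbol: H2-Aa, H2-Ab1, H2-Eb1 and Cd74 of the class II pathway, B2m, H2-K1 and H2-D1 of the class I molecule, and Tap1, Psmb8 and Psmb9, which prepare peptides for class I. All 10 were among the 14096 genes listed for each of the 12 mice, so no member was lost to a filter on low values. The study asked whether arctigenin (ATG), a plant lignan, changes diabetic kidney disease, and its glomerular mRNA was sequenced in 4 groups of 3 mice. All mice were male, lacked endothelial nitric oxide synthase (eNOS-/-) and were labelled C57BL/6J. At 8 weeks of age the diabetic mice (DM) received streptozotocin (STZ), a toxin of the insulin-producing beta cells, at 50 mg/kg on 5 days, and the nondiabetic mice (Con) received citrate buffer. From 10 weeks later, each mouse was given by gavage either 40 mg/kg ATG daily or 5% DMSO vehicle for 8 weeks, and was killed 18 weeks after induction. The groups are named Con_DMSO, Con_ATG, DM_DMSO and DM_ATG. Since no eNOS-sufficient mouse was sequenced, all values describe diabetes and ATG on an eNOS-/- background. No 2 groups have the first part of a mouse's label in common, so between groups whatever it stands for cannot be told apart from the group, and within each nondiabetic group mouse 3 has another first part than mice 1 and 2.

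MHC class I molecules, a heavy chain such as H2-K or H2-D paired with beta 2-microglobulin, are carried by nearly every nucleated cell and display peptides cut in the cytosol by the proteasome and pumped into the endoplasmic reticulum by the TAP transporter. MHC class II molecules, alpha and beta chains guided by the invariant chain Cd74, display peptides from ingested material and are made mainly by dendritic cells, macrophages and B cells. Interferons raise both sets: NLRC5 acts on class I promoters and CIITA on class II promoters, and interferon gamma swaps constitutive proteasome subunits for inducible ones. In the kidney, class II is known mostly from resident macrophages and dendritic cells, and glomerular endothelium carries class I.

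Each library held 23.6 to 29.8 M (mega) reads on the listed genes, recovered from the steps of the deposited values, and the members had between 289 reads (the lowest Psmb9 value) and 42232 reads (the highest B2m value). Markers of the labelled tissue were present in every mouse. All 10 podocyte markers were listed, with a mean log2 value of 13.30 to 15.05. The mean of all 25 listed markers of kidney tubules, which lie outside the glomerulus, was 10.60 to 13.69, so tubule RNA was present as well. It was lower in diabetic than in nondiabetic mice. The mice are numbered 1 to 3 within each group, and mouse 3 of the 2 nondiabetic groups is the one whose label has no number.

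Because NLRC5 and CIITA act through shared promoter elements, the bases before the start sites of the members are shown first. RefSeq's promoter table for GRCm38.p6 held 8 of the 10 members, and H2-Ab1 and Cd74 were not in it. Both strands of the 180 bases before each start site were searched for letters of known elements: TGACG (the core of the cyclic AMP response element, as in the X2 box), ATTGG (the core of the Y box) and its longer form TGATTGG, GGGGATTCC (bound by NF-kappa B), and TTTCACTT and GAAANNGAA (2 forms of interferon response element). Matches to these letters, other than TGATTGG, are in capitals in the sequences below, which are the promoters of the 3 class I members, of 2 class II members, and of the gap shared by Psmb9 and Tap1. Each is given 5′ to 3′ on its gene's strand, and the shared gap on the Tap1 strand.
B2m, chr2:122147507-122147686, plus strand: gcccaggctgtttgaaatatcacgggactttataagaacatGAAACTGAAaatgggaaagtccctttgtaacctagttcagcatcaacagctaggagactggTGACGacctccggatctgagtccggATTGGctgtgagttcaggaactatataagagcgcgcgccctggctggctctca
H2-K1, chr17:34000334-34000513, minus strand: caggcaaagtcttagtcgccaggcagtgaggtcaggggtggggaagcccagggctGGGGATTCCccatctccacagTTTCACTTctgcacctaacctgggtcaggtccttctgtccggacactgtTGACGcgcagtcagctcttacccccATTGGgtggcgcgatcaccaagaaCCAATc
H2-D1, chr17:35262914-35263093, plus strand: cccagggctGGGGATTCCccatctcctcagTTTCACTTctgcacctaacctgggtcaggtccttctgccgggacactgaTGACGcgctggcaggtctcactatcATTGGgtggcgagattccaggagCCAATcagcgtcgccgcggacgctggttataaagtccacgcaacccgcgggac
H2-Aa, chr17:34287824-34288003, minus strand: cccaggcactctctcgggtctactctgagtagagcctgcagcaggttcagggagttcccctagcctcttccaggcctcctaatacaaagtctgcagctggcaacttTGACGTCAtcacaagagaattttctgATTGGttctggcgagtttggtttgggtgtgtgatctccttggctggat
H2-Eb1, chr17:34305687-34305866, plus strand: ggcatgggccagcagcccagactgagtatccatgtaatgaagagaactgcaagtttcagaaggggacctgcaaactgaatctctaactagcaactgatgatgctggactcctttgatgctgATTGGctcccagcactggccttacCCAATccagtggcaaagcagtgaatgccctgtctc
Psmb9 to Tap1, chr17:34187331-34187555, plus strand: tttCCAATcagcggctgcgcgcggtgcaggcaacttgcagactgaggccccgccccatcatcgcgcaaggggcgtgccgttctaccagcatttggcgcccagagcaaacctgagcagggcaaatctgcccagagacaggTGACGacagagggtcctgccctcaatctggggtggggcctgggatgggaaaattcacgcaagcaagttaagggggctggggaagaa

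TGACG stood in 6 of the 8 members' windows, where Psmb9 and Tap1 share 1 site because their windows overlap, and in 15.0% of the 27025 promoters of the table, and ATTGG in 6 of 8 and in 28.2%. The longer TGATTGG stood in 4 of 8 and in 6.71%. A TGACG followed on the same strand by ATTGG with 20 bases between was found in B2m, H2-K1 and H2-D1, and with 21 bases between in H2-Aa. Either spacing stood in 0.141% of all promoters. GGGGATTCC was found in H2-K1 and H2-D1, and in 38 promoters of the whole table. TTTCACTT, also in H2-K1 and H2-D1, stood in 0.947% of promoters, and GAAANNGAA, in B2m, in 4.95%. H2-K1 and H2-D1 shared an identical run of 40 bases that holds TTTCACTT. Psmb9 and Tap1 are transcribed in opposite directions from 225 bases of common sequence, which held 1 match each to TGACG and ATTGG. The window of Psmb8 had none of these matches. These are matches of letters, and binding was not measured.

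**Figure D1:**
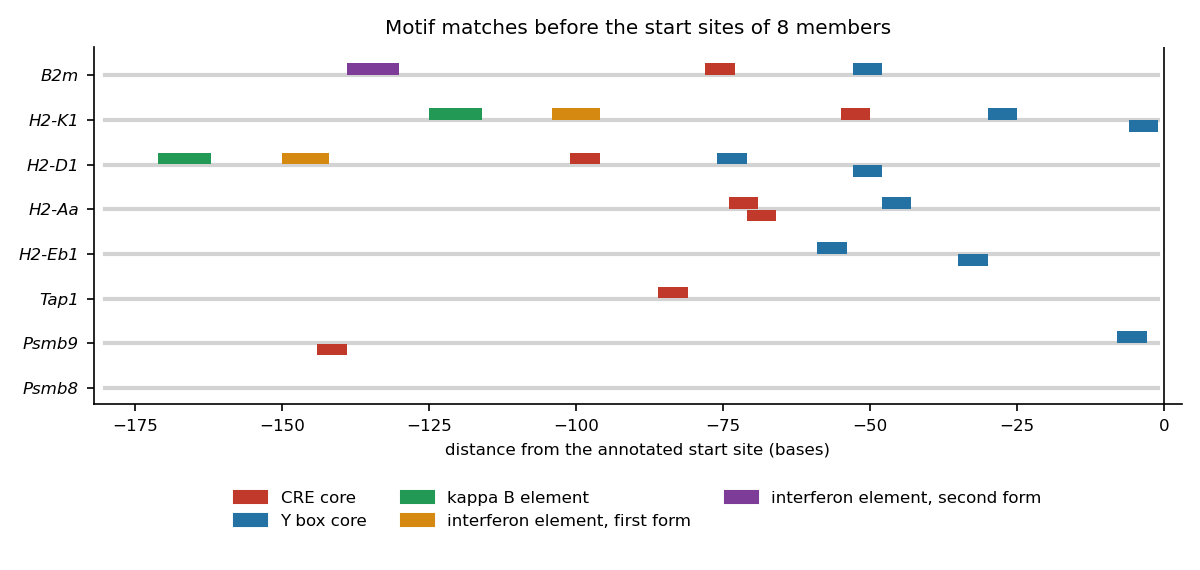
Motif matches in the 180 bases before the start sites of 8 members, drawn to scale as distance from the start site in bases. Boxes above a line are matches on the gene's strand and boxes below it on the other strand. The core of the cyclic AMP response element (CRE) is followed by a Y box core at nearly the same spacing in B2m, H2-K1, H2-D1 and H2-Aa.

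Per kilobase of gene length, the linear normalised value in Con_DMSO glomeruli was highest for B2m, at 25210 ± 3519 (SD, n = 3). The heavy chains H2-D1 and H2-K1 followed at 10712 ± 1016 and 8879 ± 762. Cd74 came next at 3985 ± 833, and the class II chains H2-Aa, H2-Ab1 and H2-Eb1 stood at 2033 ± 393, 1816 ± 312 and 1249 ± 250. Psmb9 and Psmb8 had 679 ± 5.37 and 672 ± 42.1, and Tap1 was lowest at 321 ± 25.9. H2-Aa and H2-Ab1 did not differ beyond their spread, and neither did Psmb9 and Psmb8. The light chain thus stood above H2-D1 and above H2-K1, each taken singly, in each group. In DM_DMSO mice B2m reached 49364 ± 7130 per kilobase. Other listed class I heavy chains were not included in this comparison. In the GENCODE vM21 transcripts, 8.79% of the 50-base stretches of H2-K1 and 14.3% of those of H2-D1 are also found in transcripts of other genes, the largest share of H2-K1 in H2-D1 and that of H2-D1 in H2-Q1, another class I heavy chain, so reads may be split between them in ways the counting decides. Tap1 and Psmb9 also have stretches in common, 12.5% of those of Psmb9 being in annotated Tap1 transcripts, so their reads may not be fully separate either.

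The first comparison asked what diabetes does to these genes on vehicle. All 3 class I members and all 3 genes of peptide supply rose in DM_DMSO against Con_DMSO glomeruli, class I by 1.87- to 1.98-fold and Tap1, Psmb8 and Psmb9 by 1.69- to 1.75-fold. In total 6 of 10 members were called higher and none lower at an adjusted p under 0.05 (limma across all listed genes), where 18.9% of all listed genes were called, 10.2% higher and 8.63% lower. In the same 6, every DM_DMSO mouse stood above every Con_DMSO mouse, which held for 22.96% of all listed genes (3237 genes). None of the 4 class II members passed the test.

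**Figure D2:**
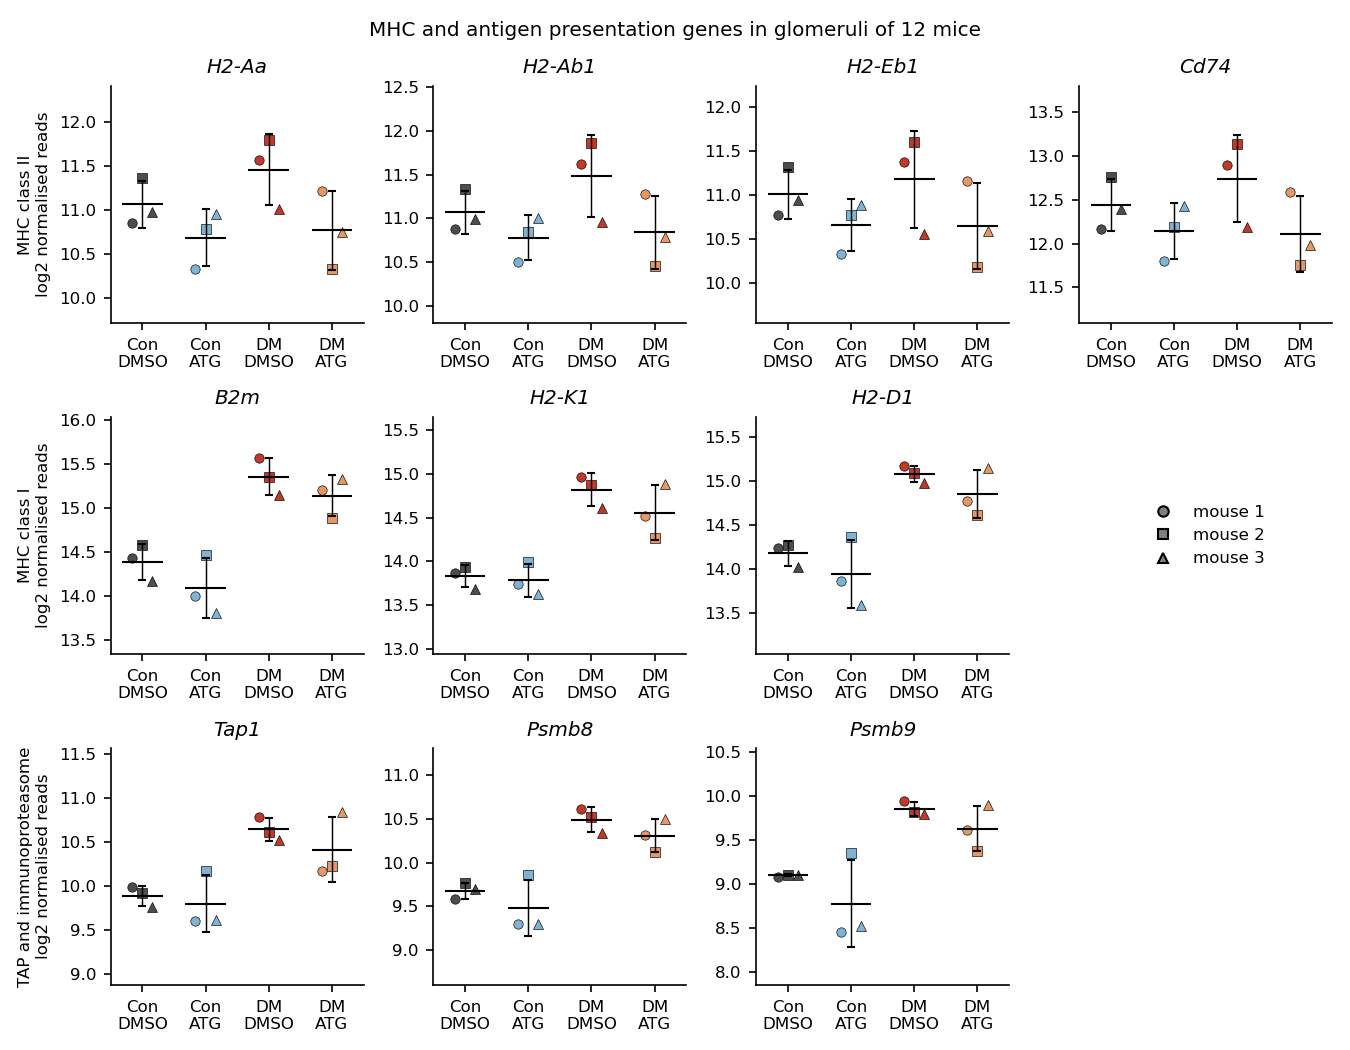
Deposited log2 value of each member in every mouse, by group. Rows are the class II, class I, and TAP and immunoproteasome members, symbols are mice 1 to 3, horizontal lines are group means and bars are 1 SD (n = 3), and every panel spans the same number of log2 units. In the lower 2 rows both diabetic groups lie above the nondiabetic groups. In the upper row DM_DMSO overlaps Con_DMSO and DM_ATG overlaps Con_ATG in every panel.

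B2m is the light chain that every classical class I molecule needs. Its log2 value in mice 1 to 3 was 14.43, 14.58 and 14.17 in Con_DMSO, 14.001, 14.47 and 13.81 in Con_ATG, 15.57, 15.36 and 15.15 in DM_DMSO, and 15.21, 14.89 and 15.33 in DM_ATG. All 6 diabetic mice were above all 6 nondiabetic mice, and the 2 diabetic groups overlapped. B2m was 0.97 higher with diabetes on the log2 scale (SE 0.19, adjusted p = 0.00940). H2-K1, the heavy chain of the K locus, gave 13.87, 13.94 and 13.69 in Con_DMSO, 13.74, 13.99 and 13.62 in Con_ATG, 14.97, 14.88 and 14.61 in DM_DMSO, and 14.51, 14.26 and 14.89 in DM_ATG. Its order was the same, with the diabetic mice apart from the others, and the diabetes difference was 0.99 (SE 0.16, adjusted p = 0.00512). For H2-D1, the heavy chain of the D locus, the values were 14.24, 14.28 and 14.02 in Con_DMSO, 13.87, 14.37 and 13.59 in Con_ATG, 15.17, 15.09 and 14.98 in DM_DMSO, and 14.78, 14.62 and 15.15 in DM_ATG. Again the diabetic mice stood apart, and Con_ATG mouse 2 was the highest nondiabetic mouse for both heavy chains. H2-D1 differed by 0.90 (SE 0.19, adjusted p = 0.0116).

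Tap1 is 1 of the 2 subunits of the peptide transporter. It gave 9.98, 9.92 and 9.75 in Con_DMSO, 9.60, 10.17 and 9.61 in Con_ATG, 10.79, 10.61 and 10.53 in DM_DMSO, and 10.17, 10.23 and 10.84 in DM_ATG. On vehicle the diabetic mice stood apart, whereas on ATG the lowest diabetic mouse was level with Con_ATG mouse 2. The diabetes difference was 0.76 (SE 0.19, adjusted p = 0.0210). Psmb8, the inducible chymotrypsin-like subunit of the proteasome, had values of 9.58, 9.76 and 9.69 in Con_DMSO, 9.30, 9.86 and 9.30 in Con_ATG, 10.61, 10.52 and 10.33 in DM_DMSO, and 10.31, 10.11 and 10.49 in DM_ATG. Here all 6 diabetic mice were above all 6 nondiabetic mice, and the diabetes difference was 0.81 (SE 0.15, adjusted p = 0.00760). Psmb9, which replaces the caspase-like subunit, gave 9.08, 9.10 and 9.10 in Con_DMSO, 8.45, 9.35 and 8.52 in Con_ATG, 9.94, 9.82 and 9.79 in DM_DMSO, and 9.62, 9.38 and 9.90 in DM_ATG. The Con_DMSO mice lay close together, and Con_ATG mouse 2 stood well above the other mice of its group. Psmb9 differed by 0.76 with diabetes (SE 0.21, adjusted p = 0.0286).

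Among the class II members, H2-Aa encodes the alpha chain of I-A. Its log2 value was 10.85, 11.37 and 10.98 in Con_DMSO, 10.33, 10.79 and 10.95 in Con_ATG, 11.57, 11.80 and 11.01 in DM_DMSO, and 11.22, 10.33 and 10.75 in DM_ATG. DM_DMSO mouse 3 lay within the Con_DMSO range and the other two diabetic vehicle mice above it. The beta chain gene H2-Ab1 gave 10.88, 11.34 and 10.99 in Con_DMSO, 10.50, 10.84 and 10.999 in Con_ATG, 11.62, 11.86 and 10.96 in DM_DMSO, and 11.28, 10.46 and 10.78 in DM_ATG. H2-Eb1, the beta chain of I-E, gave 10.77, 11.32 and 10.94 in Con_DMSO, 10.33, 10.77 and 10.89 in Con_ATG, 11.38, 11.60 and 10.55 in DM_DMSO, and 11.16, 10.18 and 10.59 in DM_ATG. The same mice were high and low for both beta chains, and the groups overlapped. Cd74, the invariant chain, gave 12.17, 12.76 and 12.39 in Con_DMSO, 11.80, 12.19 and 12.43 in Con_ATG, 12.90, 13.13 and 12.18 in DM_DMSO, and 12.59, 11.76 and 11.99 in DM_ATG. The diabetes differences of these 4 genes were 0.17 to 0.41, with adjusted p from 0.271 to 0.717. They depended on single mice, since with 1 mouse left out at a time H2-Aa ran from 0.22 to 0.62, H2-Ab1 from 0.22 to 0.67, Cd74 from 0.10 to 0.58 and H2-Eb1 from -0.040 to 0.48. Their 95% intervals had upper ends of 0.83 to 0.97, so the intervals of H2-Aa, H2-Ab1 and Cd74 held the difference measured for H2-D1. The difference between class I and class II mean values in a mouse was 2.57 to 3.01 in Con_DMSO and 3.01 to 3.74 in DM_DMSO.

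Markers of other cells moved with diabetes beside these genes. Of 19 pan-leukocyte and macrophage markers, all listed, 8 were called higher and none lower, and their summed linear value was 8684 to 12258 in Con_DMSO and 14064 to 18334 in DM_DMSO. Of the dendritic cell markers 6 of 7 were listed and 1 was called higher, Clec9a. Of the B cell markers 3 of 7 were listed, and Ms4a1, Cd79a, Cd79b and Pax5 were not. Only Lck was listed of 7 T cell markers, without a call. All 25 kidney tubule markers were listed, 15 were called lower, and their sum was 428905 to 497562 in Con_DMSO and 95982 to 279818 in DM_DMSO. Glomerular endothelium, a cell type that carries class I, had 4 of 10 markers called higher and none lower. None of the 10 podocyte markers was called, 1 of 8 mesangial markers was called higher (Serpine2) and 2 lower (Sfrp2 and Ren1), and 3 of 5 erythrocyte markers higher. When the fit was adjusted for the average of the tubule list, 0 of the 10 members and 4.90% of all listed genes were called, and when it was adjusted for the average of the leukocyte list 0 members and 0.553% of listed genes. The 6 members kept a positive difference in both fits, 0.40 to 0.91 with larger errors (SE 0.25 to 0.32) in the first and 0.57 to 0.80 (SE 0.18 to 0.27) in the second. Among these 6, the tubule adjustment moved Psmb9 most, from 0.76 to 0.40, and Tap1 to 0.47, whereas H2-K1 stayed at 0.91. The tubule average was 10.60 to 12.03 in the diabetic and 12.50 to 13.69 in the nondiabetic mice, without overlap. In that fit tubule content and diabetes therefore cannot be told apart. The class II members moved in opposite directions in these fits, to 0.68 to 0.85 with the tubule adjustment and to -0.60 to -0.23 with the leukocyte adjustment, none called. Their part in the result was not tested further, and in bulk RNA fewer cells of a type and less RNA per cell cannot be told apart. Leaving out any 1 Con_DMSO mouse or DM_DMSO mouse 1 ended the calls of Tap1 (adjusted p 0.0504 to 0.0784) and Psmb9 (0.0674 to 0.0925). The other 4 calls remained without any 1 mouse.

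The second comparison, of DM_ATG with DM_DMSO, asked what ATG did in diabetic mice. No member was called, nor was any other listed gene (0 of 14096, percent called 0), while 636 listed genes (4.51%) had an unadjusted p under 0.05. All 10 members were lower in sign under ATG and in all 10 the groups overlapped, whereas 6.32% of listed genes had DM_ATG wholly below DM_DMSO. The class II members had the largest differences, H2-Aa -0.69 (SE 0.26), H2-Ab1 -0.64 (SE 0.25), Cd74 -0.63 (SE 0.28) and H2-Eb1 -0.54 (SE 0.30), each with an adjusted p of 1.00. H2-Aa, H2-Ab1 and Cd74 had unadjusted p under 0.05, at 0.0220, 0.0282 and 0.0449, which held in the lower direction for 2.81% of listed genes. Class I members differed by -0.26 to -0.22 and Tap1, Psmb8 and Psmb9 by -0.23 to -0.18. With 1 mouse left out at a time all 10 stayed lower in sign, but the size varied, as for H2-Eb1 (-0.85 to -0.30), B2m (-0.32 to -0.090), H2-K1 (-0.43 to -0.12) and Tap1 (-0.44 to -0.11). For B2m the 95% interval ran from -0.64 to 0.20, so a fall by as much as its rise with diabetes was outside the interval. Leukocyte markers moved the same way, with 18 of 19 lower in sign, none called, and a sum of 9857 to 14844 in DM_ATG. All 5 erythrocyte, 8 of 10 podocyte and 5 of 6 listed dendritic cell markers were also lower in sign. In contrast 23 of 25 tubule and 6 of 10 endothelial markers were higher in sign. The part of these cells was not tested. Adjusted for the leukocyte average, the class II differences were -0.14 for H2-Aa (SE 0.11), -0.12 for H2-Ab1 (SE 0.13), -0.057 for Cd74 (SE 0.14) and 0.086 for H2-Eb1 (SE 0.14), and no listed gene was called in that fit either. In the same fit class I members were at -0.14 to -0.018 and Tap1, Psmb8 and Psmb9 at -0.18 to -0.018.

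**Figure D3:**
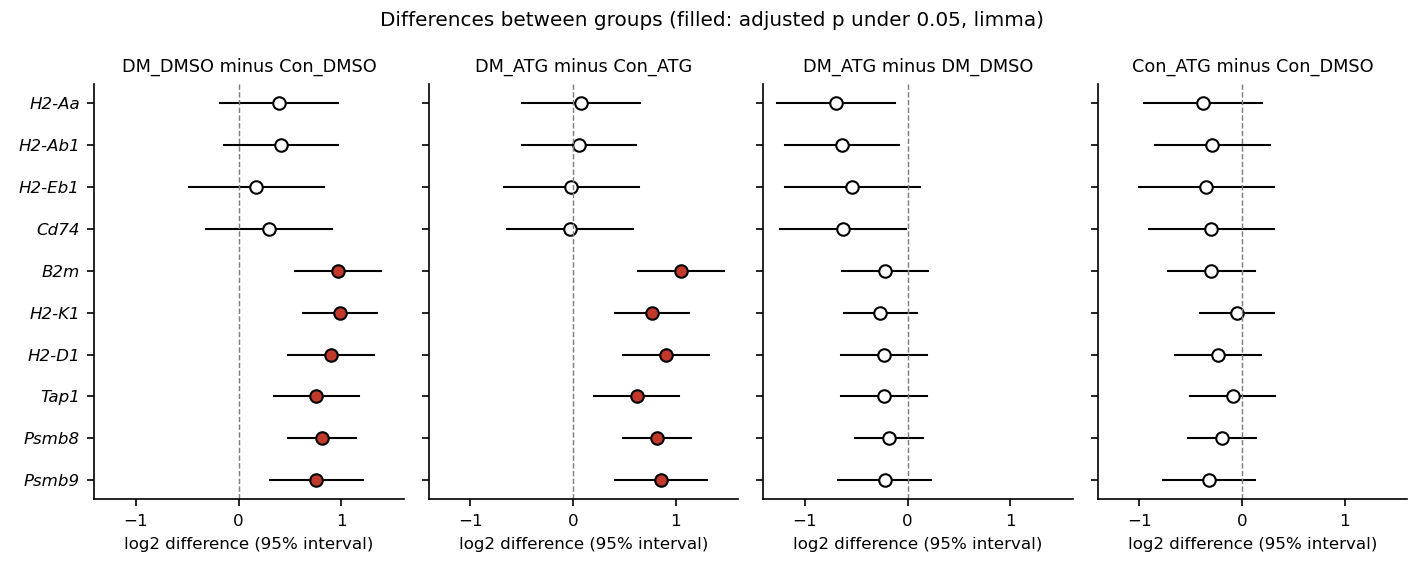
Differences between groups on the log2 scale for each member, with the 95% interval from limma. Filled points passed an adjusted p under 0.05 across all listed genes. The 6 class I, TAP and immunoproteasome members are filled in both comparisons of diabetic with nondiabetic mice, and no point is filled in either ATG comparison.

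In nondiabetic mice, Con_ATG against Con_DMSO, none of the 10 members was called, where 5.22% of all listed genes were called and 4.51% were called lower. The differences were -0.38 to -0.05, with adjusted p from 0.292 to 0.858, and again all 10 were lower in sign. That sign did not hold for all members in other fits, as H2-Aa, H2-Ab1, H2-Eb1, Cd74 and H2-K1 were positive (0.11 to 0.29) when adjusted for the leukocyte average, and H2-K1 and Tap1 reached 0.034 and 0.0037 with 1 mouse left out. Without Con_ATG mouse 2, 2 members were called lower, Psmb9 at -0.61 (adjusted p = 0.00977) and Psmb8 at -0.38 (adjusted p = 0.0394), and 3531 listed genes were called. In this group the tubule markers summed to 586482 to 886138 and the leukocyte markers to 6301 to 7901, outside the Con_DMSO range for both. Of the 10 endothelial markers 5 were called lower (Cdh5, Tek, Tie1, Ehd3 and Pecam1) and of the 8 mesangial markers 6, whereas no tubule or leukocyte marker was called. The part of these cells in the members' values was not tested.

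Diabetes was also compared among ATG-treated mice, which share no animal with the comparison on vehicle. DM_ATG glomeruli had higher class I and peptide supply genes than Con_ATG, and class II genes at nearly the same level. All 10 endothelial markers were called higher in the same comparison and 23 of 25 tubule markers lower. Higher calls were also made for 9 of 19 leukocyte, 3 of 6 listed dendritic cell, 6 of 8 mesangial and 4 of 10 podocyte markers, and 1 B cell marker, Cr2, was called lower. The part of these cells was not tested. The 6 members called were B2m at 1.05 (SE 0.19, adjusted p = 0.00174), H2-D1 at 0.91 (0.00342), Psmb9 at 0.86 (0.00666), Psmb8 at 0.82 (0.00181), H2-K1 at 0.77 (0.00365) and Tap1 at 0.62 (0.0203). The share of all listed genes called higher was 25.9%, and 30.5% did not overlap and were higher in DM_ATG, as these 6 were. The margin was small for Tap1 and Psmb9, whose lowest DM_ATG mouse was nearly level with Con_ATG mouse 2. The class II members differed by -0.03 to 0.08, with adjusted p of 0.819 to 0.969. Without Con_ATG mouse 1 or 3, or without DM_ATG mouse 3, the Tap1 call was lost (adjusted p 0.0751 to 0.0762). Adjusted for the tubule average, the fit called 0 members and 1.74% of listed genes. The same 6 were at 0.25 (Tap1) to 0.87 (B2m) and class II at 0.47 to 0.62. The tubule average did not overlap between DM_ATG and Con_ATG, so in this fit it cannot be told apart from diabetes. Adjusted for the leukocyte average, the fit called 7 members and 31.2% of listed genes. Among the 7 were all 4 class II members, as lower (-0.80 to -0.60). The difference between the ATG effects in diabetic and nondiabetic mice was -0.35 to 0.10 for the 10 members, with adjusted p of 0.650 to 0.994, where 0.546% of listed genes were called.

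Among the 12 mice, the class II members varied closely together, and so did the class I members with the genes of peptide supply. Pearson's r of log2 values was 0.96 to 0.99 between any 2 class II members, and 0.92 to 0.98 between a class I member and Tap1, Psmb8 or Psmb9, but 0.27 to 0.50 between class II and class I members. After each group's mean was subtracted, r was 0.98 to 1.00 among class II members, 0.74 to 0.91 between a class I member and a gene of peptide supply, and 0.07 to 0.45 between class II and class I. Between the class II mean and the class I mean, r was 0.315 within the 6 nondiabetic mice and 0.675 within the 6 diabetic mice. These are descriptions over mice in 4 groups that also differ in tissue makeup, and carry no p. DM_DMSO mouse 3 shows the separation, with a class II mean of 11.18 and a class I mean of 14.91, each the lowest of its group, but the second above every nondiabetic mouse. DM_ATG mouse 3 likewise had a class II mean of 11.03 and a class I mean of 15.12.

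**Figure D4:**
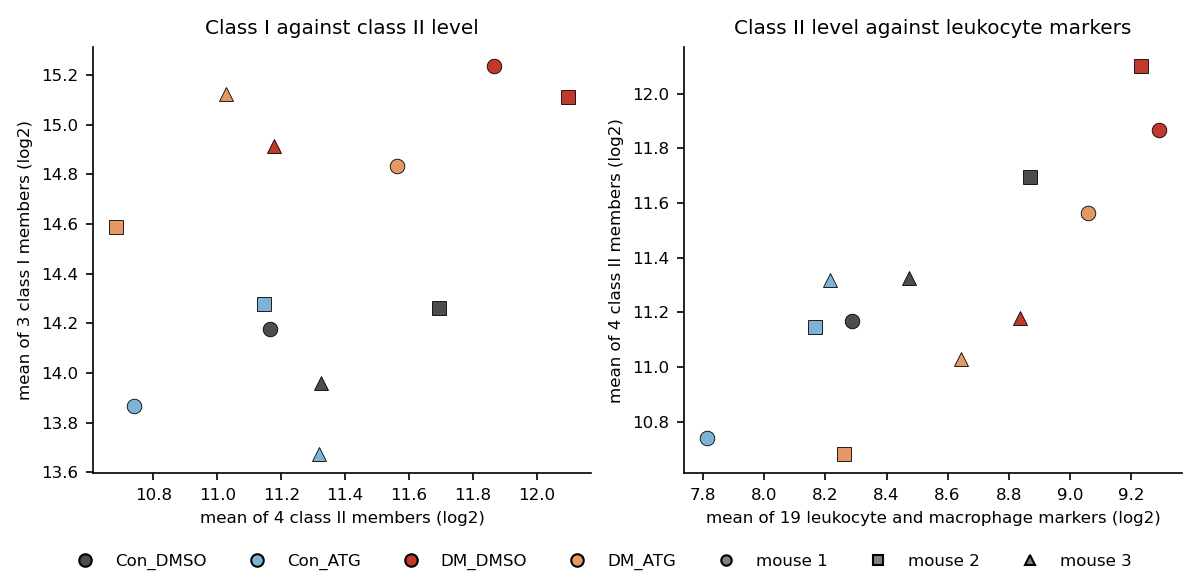
Mean log2 value of the 3 class I members against that of the 4 class II members (left), and of the class II members against the mean of 19 leukocyte and macrophage markers (right), with 1 point per mouse, coloured by group and shaped by mouse number. On the left, diabetic and nondiabetic mice separate on the class I axis and overlap on the class II axis. On the right, class II rises with the markers.

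The class II mean followed the leukocyte and macrophage marker mean, with Pearson's r of 0.834 and Spearman's rho of 0.797 over 12 mice. Within the 6 nondiabetic mice r was 0.959 and within the 6 diabetic mice 0.962, and without the 2 mice farthest from the marker median (Con_ATG mouse 1 and DM_DMSO mouse 1) it was 0.745. For class I, diabetic and nondiabetic mice separate, so r is given within each: 0.457 in nondiabetic and 0.725 in diabetic mice with the leukocyte markers, -0.755 and -0.120 with the tubule markers, 0.844 and -0.598 with the endothelial markers, and 0.9215 and -0.101 with the podocyte markers. Nlrc5, the transactivator of class I genes, went with the class I mean at 0.956 in nondiabetic and 0.901 in diabetic mice, and with the TAP and immunoproteasome mean at 0.950 and 0.967. Nlrc5 stood at 9.59, 9.46 and 9.24 in Con_DMSO, 8.93, 9.82 and 8.68 in Con_ATG, 10.30, 10.10 and 10.17 in DM_DMSO, and 9.67, 9.52 and 10.37 in DM_ATG. It was high in the same Con_ATG mouse and the same DM_ATG mouse as class I, and its diabetes difference of 0.76 (SE 0.28) had an adjusted p of 0.0761. Ciita, the transactivator of class II genes, was low in read number (119 to 217 reads per mouse) and had Pearson's r of 0.806 and Spearman's rho of 0.755 with the class II mean. That r was 0.466 in nondiabetic and 0.939 in diabetic mice, and 0.574 without DM_DMSO mouse 2 and DM_ATG mouse 2. The diabetes difference of Ciita was 0.24 (SE 0.16, adjusted p = 0.316).

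By Pearson's r over the 12 mice, the 5 non-member genes most like the class II mean were C1qb (0.962), C1qa, C1qc, Aif1 and Adgre1 (0.910). The first 3 encode complement C1q, made by macrophages, and the last encodes the F4/80 antigen. C1qa, C1qb, C1qc and Adgre1 belong to the marker list above. Most like the class I mean were H2-L (0.989), Sp110, H2-T23, Phf11a and Tapbp (0.975), and most like the TAP and immunoproteasome mean were H2-L (0.983), Sp110, Tgtp2, H2-T23 and Tapbp (0.972). Since class I and these genes of peptide supply separate diabetic from nondiabetic mice, any gene that differs with diabetes has a raised r here, and the order within either set of mice was not computed. H2-L is no independent case, because its entry (chr17:35263123-35266730) lies within that of H2-D1 (chr17:35263094-35267497) on the same strand and held 52.4% to 55.7% as many reads in each mouse. Sp110, Phf11a and Tgtp2 are interferon-inducible genes, H2-T23 is a nonclassical class I heavy chain and Tapbp encodes tapasin.

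Inducible proteasome subunits replace constitutive ones in the same position of the particle, so each pair was compared within a mouse, as a log2 difference of normalised reads. The difference of Psmb8 and Psmb5 was -1.998, -1.83 and -1.96 in Con_DMSO and -1.18, -1.44 and -1.23 in DM_DMSO, which did not overlap. Psmb9 minus Psmb6 gave -2.58, -2.63 and -2.68 in Con_DMSO and -1.96, -2.17 and -2.02 in DM_DMSO. Psmb10 minus Psmb7, the pair of the trypsin-like position, gave -1.59, -1.36 and -1.52 in Con_DMSO and -0.86, -0.96 and -0.97 in DM_DMSO. With diabetes the 3 differences rose by 0.65, 0.58 and 0.56, and on ATG by 0.96, 0.91 and 0.89, without overlap. The exact two-sided permutation test gave p = 0.1 for each of these 6, the smallest that 3 against 3 mice allow, so no call at 0.05 was possible, and 0.15 after Benjamini-Hochberg adjustment over the 12 tests of this kind. In ATG-treated diabetic mice the differences were lower than on vehicle by 0.08, 0.12 and 0.13 in the mean. Psmb10 minus Psmb7 did not overlap there (exact p = 0.1), nor did it between the nondiabetic groups, where ATG mice were lower by 0.47 in the mean (exact p = 0.1). The constitutive subunits Psmb5, Psmb6 and Psmb7 themselves differed by 0.10 to 0.18 with diabetes, without a call.

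**Figure D5:**
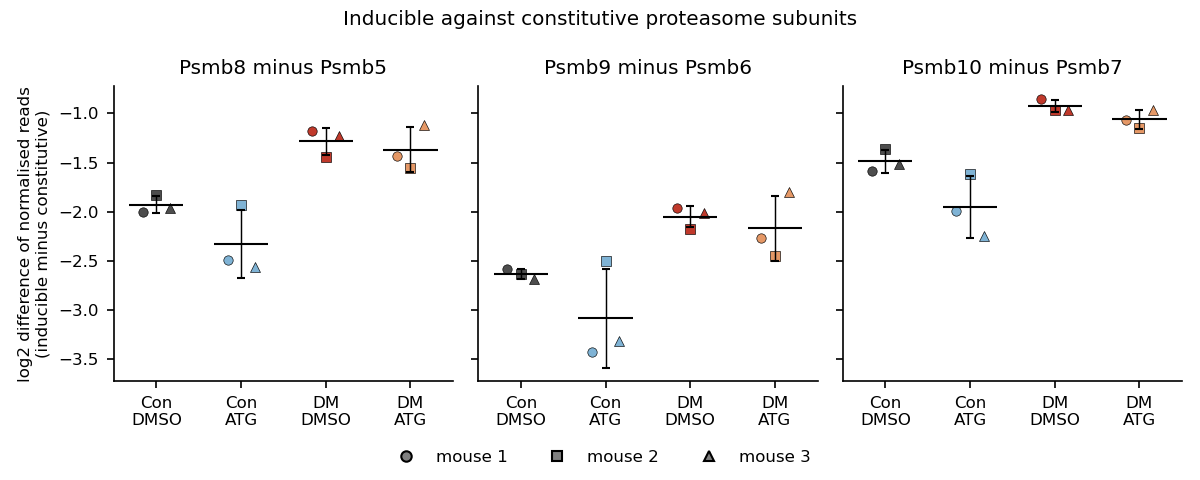
Log2 difference of normalised reads between the inducible and the constitutive proteasome subunit of each position, in every mouse. Lines are group means, bars 1 SD (n = 3) and symbols mice 1 to 3. Both diabetic groups lie above both nondiabetic groups in all 3 pairs, and Con_ATG mouse 2 lies above the other Con_ATG mice.

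Of 67 further genes of antigen presentation in 9 lists, 54 were listed. With diabetes on vehicle, 19 of them were called higher and none lower, where 10.2% of all listed genes were called higher and 8.63% lower. Their median difference was 0.29 against 0.01 over all listed genes. Among ATG-treated mice 31 were called higher, as were 25.9% of all listed genes. There 1 was called lower, Lgmn, a lysosomal protease, as were 20.8% of all listed genes. ATG gave 0 calls in diabetic mice. In nondiabetic mice it gave 3 lower calls, a share near the 4.51% of all listed genes called lower. These were Nfya, a subunit of the factor that binds the Y box, Irf2, and Icosl. Among class I heavy chains and class I-like molecules, 6 of 12 listed rose with diabetes. The lowest p were those of H2-T22 (0.48, adjusted p = 0.0132), H2-M3 (0.71, 0.0195) and H2-T10 (0.58, 0.0195), which were not the largest differences. The second transporter subunit Tap2 (0.36), the loading factor Tapbp (0.35) and its relative Tapbpl (0.32) rose, 3 of 7 in the peptide loading list. The 3 other inducible proteasome genes all rose, Psmb10 by 0.65 (adjusted p = 0.0103), Psme2 by 0.30 and Psme1 by 0.29.

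On the class II side, 3 of 7 further chains were listed. H2-DMb1, a chain of the DM molecule that loads peptides onto class II, rose by 0.55 (adjusted p = 0.0125). Its partner H2-DMa had 0.61 (adjusted p = 0.0695) and H2-Ob 0.47 (0.0730), so both missed the threshold. None of the 6 listed antigen processing genes was called. Cathepsin S (Ctss), which degrades the invariant chain, came closest at 0.61 (adjusted p = 0.0519). Of 13 transcription regulators, all listed, Irf8, a factor of macrophages and dendritic cells, had the lowest p and rose by 1.00 (adjusted p = 0.00278). Of 4 listed genes of interferon gamma receptor signalling, the receptor chain Ifngr2 rose by 0.53 (adjusted p = 0.00960). All 3 listed costimulation genes rose, the PD-L1 gene Cd274 by 0.64, Cd40 by 0.79 and Icosl by 0.36.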

How the data were processed

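Glomerular poly(A) mRNA of 12 mice was analysed from 1 deposited table per mouse. The authors deposited log2 values per gene, scaled to nearly equal sums and not divided by length. The submitters' processing notes name mm10 and limma, and the aligner, counter and scaling are not given in the sources used here. The labels also describe dissociation and sorting of cells, which the study's methods do not mention for sequencing, and values were taken as whole glomeruli. On the linear scale, 83.4% to 83.9% of values under 2000 reads were whole multiples of 1 step per library within 0.02 reads, 100% for entries with 1 transcript and 47.6% for others, which include Cd74 and Tap1.

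Groups came from the labels. All 12 mice entered 1 limma fit (version 3.58.1, R 4.3.3) of 4 groups with a mean-variance trend, and p was adjusted by Benjamini-Hochberg over 14096 genes. In simulated data for the diabetes comparison, 200 of 14096 genes were changed, with independent normal noise. Of these, 80.0% were recovered when changed by 1 on the log2 scale and 39.0% when changed by 0.5. The real comparison called 2659 genes, so these rates hold for the simulated setting. Single values used exact permutation tests. On how the samples were replicated, the labels do not say more than that each sample is a separate mouse. Up to 3 genes per list, by lowest p for diabetes or for ATG in diabetic mice, genes needed to read a member, and lower calls of 5 or fewer in the antigen presentation and interferon lists are named. The last, and single markers of other cells, were picked after their values were seen. Results for 2 genes of the lists are not reported here. Members and lists were chosen with earlier results of these data known. Alternatives were fixed filters, scalings, covariates, left-out mice and a replicate block by the number in the label, which is partly tied to diabetes.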

Additional observations from a re-analysis of the deposited data

How the results depend on the processing

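Across 12 kinds of alternative, the count of listed genes called for diabetes on vehicle (2659) became 1375 with the replicate block, 690 with the tubule and 78 with the leukocyte marker mean as a covariate, and 4136 at an adjusted p under 0.1. Members called for diabetes (6) became 3 with the block and 0 with either covariate, where the 6 differences stayed positive, at 0.40 to 0.91 and 0.57 to 0.80 against 0.76 to 0.99. The tubule mean did not overlap between diabetic and nondiabetic mice, so its fits cannot tell it apart from diabetes. For ATG in nondiabetic mice (736 genes) the counts were 0 in a fit of only those groups, 8 without both unnumbered mice, 76 with the tubule and 131 with the leukocyte covariate, and 2145 at 0.1. For diabetes under ATG (6585) they were 4314 without both unnumbered mice and 245 with the tubule covariate, which left 0 members called. For the interaction (77) they were 8 with the block, 6 without both unnumbered mice, 19 without a variance trend, 38 and 28 with the tubule and leukocyte covariates, and 215 at 0.1.

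With the leukocyte covariate the sign reversed for diabetes in H2-Aa (-0.29), H2-Ab1 (-0.23), H2-Eb1 (-0.60) and Cd74 (-0.41), for diabetes under ATG in H2-Aa (-0.61) and H2-Ab1 (-0.60), for ATG in diabetic mice in H2-Eb1 (0.086), and for ATG in nondiabetic mice in H2-Aa (0.18), H2-Ab1 (0.25), H2-Eb1 (0.29), Cd74 (0.29) and H2-K1 (0.11). For ATG in nondiabetic mice, H2-K1 was also positive with median-ratio scaling (0.00095) and Tap1 with the tubule covariate (0.050). For diabetes under ATG, H2-Eb1 and Cd74 turned positive with the block (0.19 and 0.20), without both unnumbered mice (0.10 and 0.11) and with the tubule covariate (0.62 and 0.59), and H2-Eb1 with limma-voom on recovered reads (0.00061). Apart from the covariates' construction, the cause was not tested.

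Leaving out 1 mouse at a time, listed genes called ranged from 801 to 2919 for diabetes, 60 to 3531 for ATG in nondiabetic mice, 4766 to 7451 for diabetes under ATG and 6 to 770 for the interaction, and members called from 4 to 6, 0 to 2, 5 to 6 and 0 to 0. H2-Eb1 for diabetes ranged from -0.040 to 0.48. For ATG in nondiabetic mice H2-K1 ranged from -0.15 to 0.034 and Tap1 from -0.28 to 0.0037. For diabetes under ATG, H2-Aa ranged from -0.15 to 0.30, H2-Ab1 from -0.16 to 0.25, H2-Eb1 from -0.28 to 0.22 and Cd74 from -0.27 to 0.14. For ATG in diabetic mice the difference of Psmb8 and Psmb5 ranged from -0.21 to 0.0090 and that of Psmb9 and Psmb6 from -0.30 to 0.020.

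Same-numbered mice of different groups did not deviate together from their group means (r from -0.59 to 0.34), so the number was not taken as a pairing. With the replicate block, members called were 3 for diabetes (9.75% of listed genes) and 4 for diabetes under ATG (31.4%). The block followed the number in the label, so the block of number 3 held only diabetic mice. The block without a number held only nondiabetic mice. It is thus partly tied to diabetes, and the loss of calls with it cannot be told apart from that overlap.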

Other observations

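Interferon-stimulated genes were measured beside antigen presentation. Of 25 such genes, 23 were listed, and with diabetes on vehicle 14 were called higher and none lower, with a median difference of 0.74. Of all listed genes, 10.2% were called higher in that comparison. The largest evidence by p was for Ifi27l2a at 1.65 (SE 0.29, adjusted p = 0.00602), Bst2, which tethers budding virus, at 1.08 (SE 0.19, adjusted p = 0.00636) and Isg15, a ubiquitin-like modifier, at 1.13 (SE 0.22, adjusted p = 0.00877). Among ATG-treated mice 19 of the 23 were called higher with diabetes, with a median of 1.20, where 25.9% of all listed genes were called higher. In nondiabetic mice ATG gave 3 lower calls, Oasl2 at -0.93, Oas1a at -0.80 and Usp18 at -0.75, and in diabetic mice none. In the nondiabetic comparison 4.51% of all listed genes were called lower.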
